A study of Mus musculus with 6 samples.

Results

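Interferon-inducible PARP genes of the mouse heart and genes related to them were followed through 3 diets, as 7 of the 24346 genes in the files. They were taken by symbol: *Parp1*, *Parp3*, *Parp9*, *Parp10*, *Parp12*, *Parp14* and *Dtx3l*, the gene of the E3 ubiquitin ligase that partners the PARP9 protein. *Parp1* is the member of the set that interferon is not known to induce. All 7 passed the filter on low values. The hearts came from male C57BL/6J mice, a common inbred strain without an engineered allele, and each group was represented by 2 libraries. The C group ate normal chow. The N group ate a NASH diet rich in fat, cholesterol and sucrose with added bile acid, which produces steatohepatitis, an inflamed fatty liver. The NP group ate the NASH diet together with pemafibrate, an agonist of the nuclear receptor PPARα, at 0.1 mg/kg. The labels give 3 weeks of feeding and the methods of the study give 8 weeks. The sources used here give no age of these mice, and nothing in them says whether a library stands for 1 animal or for a pool, so that the *P* values measure only the spread between these libraries. The values are FPKM, the number of fragments of a gene scaled for its transcript length and for the mapped fragments of the library. Levels can thus be compared between genes per length. Between libraries the comparison still depends on the scaling, for which alternatives are given below.

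PARP enzymes take ADP-ribose from NAD and attach it to proteins, DNA or RNA. PARP1 builds long chains of it at DNA breaks, whereas most of the family, including PARP3, PARP10, PARP12 and PARP14, attach single ADP-ribose units. Several members are classical targets of interferon, and their proteins are known from antiviral defence and from macrophages. PARP9 has little activity of its own, and acts in a complex with DTX3L that amplifies the interferon response. In the heart, PARP1 is the member best known, since its activation during oxidative injury drains NAD from the muscle cells.

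*Parp14*, *Dtx3l* and *Parp9* lie next to each other on chromosome 16 (mm10, GENCODE M21 annotation). *Parp14* occupies chr16:35832874-35871544 on the minus strand, *Dtx3l* chr16:35926511-35939151 on the minus strand and *Parp9* chr16:35938470-35972605 on the plus strand. *Dtx3l* and *Parp9* point away from each other, and their annotated ends share 682 bases. The other members stand alone: *Parp1* at chr1:180568924-180601254 (plus strand), *Parp3* at chr9:106470322-106476949 (minus), *Parp10* at chr15:76231174-76243441 (minus) and *Parp12* at chr6:39086410-39118349 (minus). *Parp10* shares 1401 bases with *Plec* on the same strand, and *Parp3* shares 987 bases with *Rrp9* on the opposite strand. Whether fragments were assigned by strand is not given in the sources used here, so that reads from the shared bases cannot be attributed to either gene.

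The RefSeq promoter table (GRCm38.p6, the assembly of mm10) held 4 of the 7 members, *Parp1*, *Parp3*, *Parp12* and *Dtx3l*, and *Parp9*, *Parp10* and *Parp14* were not among them. The sequences before the start are shown because 2 of these genes, *Parp12* and *Dtx3l*, rose on the NASH diet and the other two did not pass the test. Each is written 5′ to 3′ on the strand of the gene, with GAAA or its reverse complement TTTC, the repeated element of interferon-response sites, in capitals. Bases that any transcript annotates as untranslated region were left out, which shortens the window of *Dtx3l*, where that gene and *Parp9* diverge, to 71 bases.
Dtx3l, chr16:35939207-35939277, minus strand: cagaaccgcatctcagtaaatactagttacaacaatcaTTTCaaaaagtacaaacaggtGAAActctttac
Parp12, chr6:39118350-39118599, minus strand: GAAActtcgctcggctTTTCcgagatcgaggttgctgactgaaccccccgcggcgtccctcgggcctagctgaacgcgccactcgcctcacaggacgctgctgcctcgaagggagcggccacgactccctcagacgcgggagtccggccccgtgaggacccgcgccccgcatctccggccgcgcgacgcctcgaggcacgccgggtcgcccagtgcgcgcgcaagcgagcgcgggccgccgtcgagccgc
Parp3, chr9:106476950-106477199, minus strand: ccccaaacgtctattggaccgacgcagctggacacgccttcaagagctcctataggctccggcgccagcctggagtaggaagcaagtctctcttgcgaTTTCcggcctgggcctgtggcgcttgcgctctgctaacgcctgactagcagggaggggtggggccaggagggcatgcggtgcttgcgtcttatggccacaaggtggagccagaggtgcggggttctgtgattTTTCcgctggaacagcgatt
Parp1, chr1:180568641-180568890, plus strand: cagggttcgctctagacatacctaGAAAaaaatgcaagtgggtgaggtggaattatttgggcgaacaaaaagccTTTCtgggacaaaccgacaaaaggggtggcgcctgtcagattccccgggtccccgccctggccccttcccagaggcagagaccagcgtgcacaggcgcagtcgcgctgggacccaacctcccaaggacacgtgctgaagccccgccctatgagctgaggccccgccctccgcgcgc

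In the 250 bases before the RefSeq start, *Dtx3l* held the GAAA element 3 times, 2 of them in the stretch shown. Each of the other genes held it 2 times. The RefSeq start of *Dtx3l* lies inside the gene as placed above. Part of its window, chr16:35939028-35939277, is therefore within that gene, which reaches 35939151. The whole window, with the stretch shown, also lies within *Parp9* as placed above. The element occurs in 86.4% of all 32851 promoters, with a median of 2, so that its presence did not set these genes apart. The sequences differ in base composition: G and C made up 73.6% of the *Parp12* window, 61.6% of that of *Parp1*, 61.2% of that of *Parp3* and 52.8% of that of *Dtx3l*, against a median of 52.4% over all promoters. Longer motifs were searched on both strands of the window from 250 bases before to 50 bases after the start. The core of the interferon-stimulated response element, GAAANNGAA, and the gamma-activated site, TTCNNNGAA, share 3 letters and may overlap. Neither had a match in any of the 4 windows. The first is present in 8.56% and the second in 8.3% of all promoters. The first is present in 12 of 24 promoters (50%) of the type I interferon targets listed below and in 10 of 16 (62.5%) of the interferon-gamma targets. A missing match says only that these letters are not in these windows.

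The FPKM summed to between 548411 and 652311 per library. An estimate from the smallest steps between values gave 26200000 and 21600000 reads for the C libraries and 8220000 to 8830000 for the N and NP libraries, so that depth and diet cannot be told apart in comparisons with the C group. The value of a member rested on about 116 reads (*Parp10*, NP replicate 2) to about 2250 reads (*Parp1*, C replicate 1). Cardiomyocyte genes such as *Tnnt2* were at 7466 to 9822 FPKM in every library, which goes with the label of heart, although the extraction text in the labels speaks of liver. Genes of hepatocytes summed to 410 FPKM in C replicate 2 and to 9.45 to 31.1 in the other 5 libraries. Genes of the atrium (*Nppa*, *Myl7*, *Myl4*, *Sln*) summed to 171 and 307 FPKM on chow and to 3647 to 6124 in the N and NP libraries, and all 4 rose in the N group. Their part in the results was not tested.

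In the chow-fed heart, *Parp1* and *Parp3* stood well above the other members. The FPKM of *Parp1* was 23.4 and 22.2 on chow, and that of *Parp3*, a mono-ADP-ribosyltransferase of double-strand break repair, was 23.0 and 20.9, and the libraries of these genes overlapped. *Parp12* followed with a mean of 8.30 ± 1.32 (SD, n = 2), *Parp14* with 6.76 ± 0.91, *Parp9* with 5.93 ± 0.06, *Dtx3l* with 5.50 ± 0.09 and *Parp10* with 5.32 ± 0.61. The libraries of *Parp12* and *Parp14* overlapped, as did those of *Dtx3l* and *Parp10*, so that these neighbours in the order did not differ beyond their spread. The order of the 7 means was identical in the NP group. In the N group, *Parp14* moved to the second place behind *Parp3*, and its libraries overlapped those of *Parp1*.

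**Figure D1:**
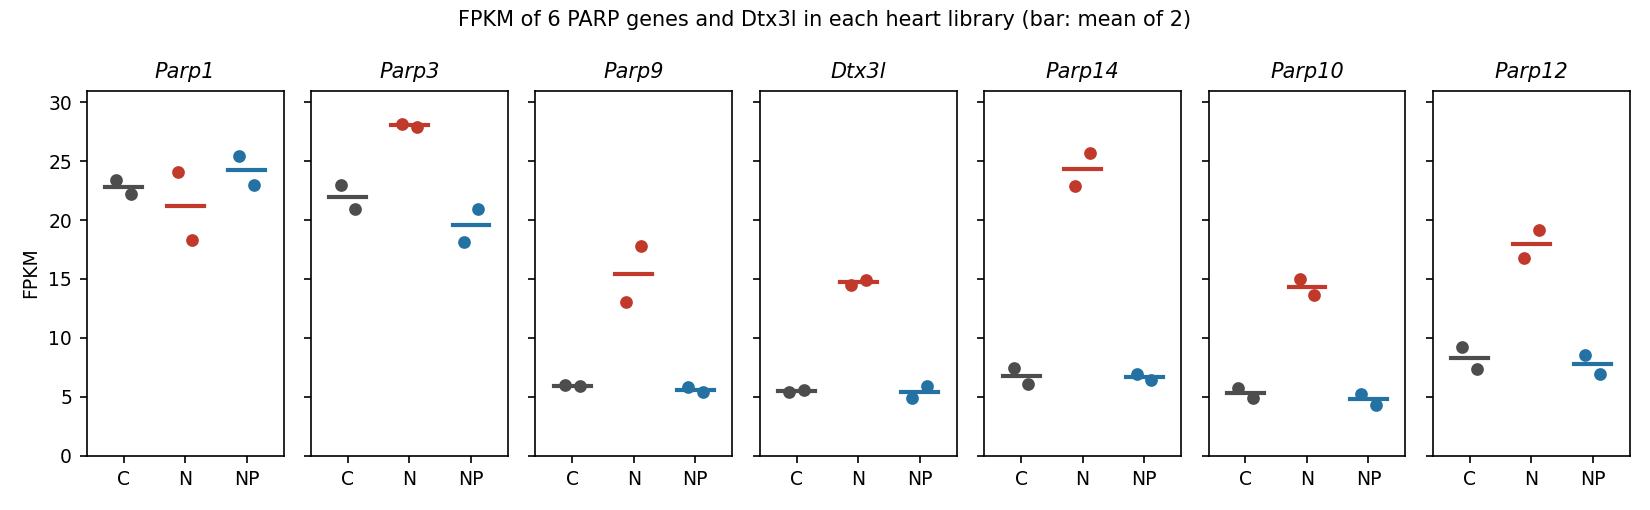
FPKM (vertical axis, from 0) of each of the 7 genes in the C, N and NP libraries; each point is 1 library and each bar the mean of the 2 libraries of a group. In *Parp9*, *Dtx3l*, *Parp14*, *Parp10* and *Parp12* both N libraries lie above the 4 others, which sit between 4.34 and 9.23 FPKM, whereas the libraries of *Parp1* overlap.

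The NASH diet was compared with chow to see which PARP genes changed in the heart on this diet. Of the 7 genes, 5 rose in the N group and none fell: *Parp14*, *Parp10*, *Dtx3l*, *Parp9* and *Parp12*, by 1.03 to 1.71 on the log2(FPKM + 1) scale. *Parp1* and *Parp3* did not pass the test. Among all 12923 genes tested, 1.48% rose, and the median difference was −0.03, against 1.23 over the 7 genes. In 6 of the 7 genes the N libraries lay above those of C, against 22.5% of all genes. The 7 genes and the gene lists below were chosen with earlier results of these data known. Shares and medians set against all genes, here and below, therefore describe them and are no independent support. Tests were made with limma on log2(FPKM + 1), which understates the change of low values, and adjustment over all genes followed Benjamini and Hochberg. Differences are given as N minus C, NP minus N and NP minus C. In RNA of heart tissue, more cells of a type and more RNA per cell cannot be told apart. The atrial genes given above also separated the C libraries from the others, so that the part of the heart sampled may differ with diet. That was not tested.

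*Parp14* encodes a large macrodomain protein that attaches single ADP-ribose units and assists STAT6 in interleukin-4 signalling. Its FPKM was 7.40 and 6.11 on chow, 22.9 and 25.7 on the NASH diet, and 6.90 and 6.44 with pemafibrate. Both N libraries were high and the C and NP libraries overlapped, and the lowest N library was 3.10 times the highest C library. The N minus C difference was 1.71 (SE 0.13, 95% interval 1.38 to 2.03, adjusted *P* = 0.00383), and 126 of the genes tested had a higher one. In NP minus N it was −1.72 (SE 0.13, adjusted *P* = 0.0038). In FPKM, the ratio of *Parp14* to *Parp1* was 0.316 and 0.275 on chow, 0.951 and 1.40 on the NASH diet, and 0.272 and 0.280 with pemafibrate.

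*Parp9* and *Dtx3l* form the complex that adds ubiquitin to histones and viral proteins during an interferon response. The FPKM of *Parp9* was 5.98 and 5.89 on chow, 13.1 and 17.8 on the NASH diet, and 5.79 and 5.41 with pemafibrate. That of *Dtx3l* was 5.44 and 5.56, then 14.5 and 14.9, then 4.92 and 5.91 in the same order. The N libraries were high in both genes. They spread by 1.36 times in *Parp9* and by 1.03 times in *Dtx3l*. The N minus C difference was 1.23 for *Parp9* (SE 0.16, adjusted *P* = 0.0274) and 1.27 for *Dtx3l* (SE 0.12, adjusted *P* = 0.00843). In NP minus N it was −1.30 for both, with adjusted *P* = 0.0235 for *Parp9* and 0.00803 for *Dtx3l* (limma). The FPKM of *Parp9* was 0.899 to 1.20 times that of *Dtx3l* in the 6 libraries, without separation of the groups.

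The flanking genes on chromosome 16 did not pass the test. *Hspbap1*, 4396 bases beyond *Parp14*, differed by −0.17 in N minus C (adjusted *P* = 0.756, limma), and its FPKM was at most 1.37. *Kpna1*, 6144 bases beyond *Parp9* and coding for an importin, a carrier of proteins into the nucleus, had 37.8 and 39.3 FPKM on chow and 32.1 and 38.2 on the NASH diet, a difference of −0.13 (adjusted *P* = 0.683, limma). Nor did *Itpkb* and *Lin9* beside *Parp1*, *Rrp9* beside *Parp3*, *Plec* and *Grina* beside *Parp10*, or *Tbxas1* beside *Parp12*, whose N minus C differences ranged from −0.27 to 0.42. In NP minus N they ranged from −0.99 in *Tbxas1* (adjusted *P* = 0.172, limma) to 0.28 in *Plec*, and none was called. The FPKM of *Tbxas1* was 2.30 and 3.49 on the NASH diet and 0.956 and 0.927 with pemafibrate. *Plec*, which shares bases with *Parp10*, was at −0.27 with overlapping groups (adjusted *P* = 0.678, limma). A value over the whole gene cannot show the reads on the shared bases. *Gpr62* and *4930599N23Rik* were under the filter.

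**Figure D2:**
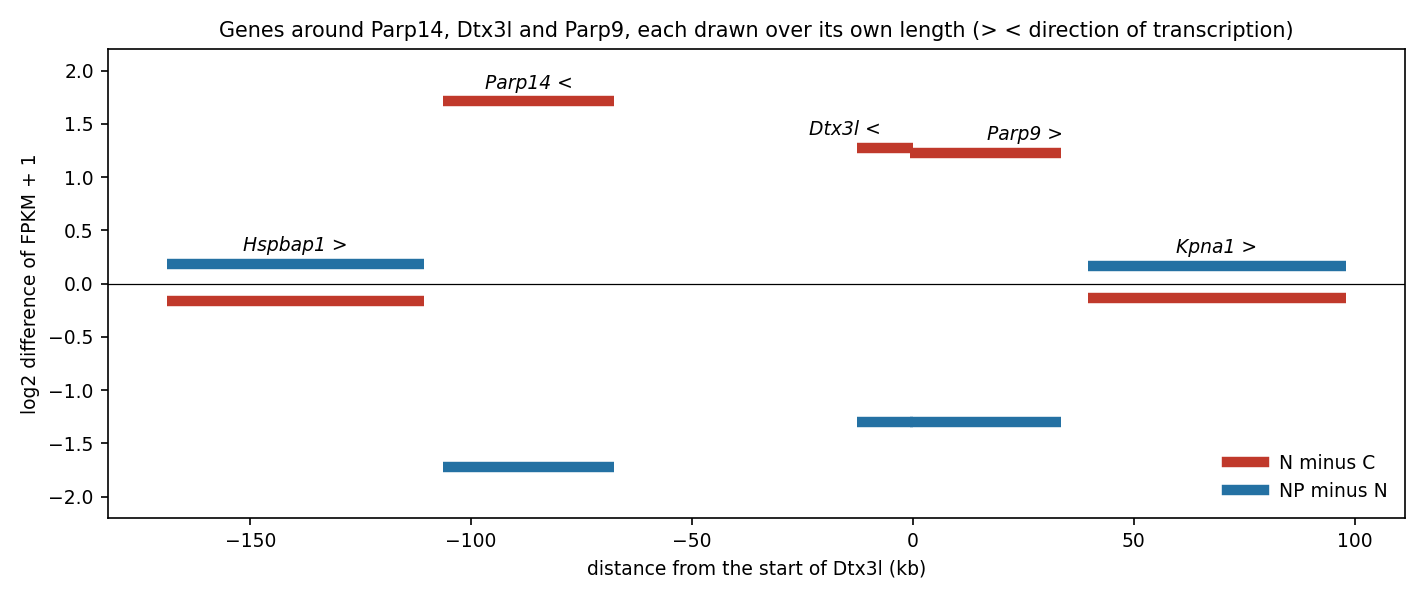
Log2 difference of FPKM + 1 (vertical axis) of *Parp14*, *Dtx3l*, *Parp9* and the gene on each side, each drawn as a bar over its own length in kb from the start of *Dtx3l* (horizontal axis), for N minus C (red) and NP minus N (blue). The 3 genes of the cluster lie at 1.23 to 1.71 and at −1.72 to −1.30, and *Hspbap1* and *Kpna1* lie between −0.17 and 0.19.

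*Parp10*, a mono-ADP-ribosyltransferase that binds MYC and ubiquitin, was the lowest of the 7 in every group by its mean. Its FPKM was 5.75 and 4.89 on chow, 15.0 and 13.6 on the NASH diet, and 5.25 and 4.34 with pemafibrate. The N libraries were separate from all others, and the lowest was 2.37 times the highest C library. The difference was 1.28 in N minus C (SE 0.14, adjusted *P* = 0.0134) and −1.41 in NP minus N (adjusted *P* = 0.00991).

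*Parp12* is a zinc-finger member that blocks the translation of viral RNA. Its FPKM was 9.23 and 7.36 on chow, 16.8 and 19.2 on the NASH diet, and 8.55 and 6.94 with pemafibrate. The N libraries stood above the rest, by 1.82 times between the lowest of them and the highest C library, the narrowest gap among the 5 genes that rose. The difference was 1.03 (SE 0.16, adjusted *P* = 0.0477) and then −1.12 (adjusted *P* = 0.0385). In N minus C the call was lost under quantile normalization (adjusted *P* = 0.0531), without a trend in the prior (0.0510), without the filter (0.0827) and with only the 2 groups in the model (0.0732). In NP minus N it was lost at the same total (adjusted *P* = 0.0614, limma), without the filter (0.0766) and with only the 2 groups (0.111).

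*Parp3* and *Parp1* were not called in any comparison. The FPKM of *Parp3* was 28.2 and 27.9 on the NASH diet and 18.2 and 20.9 with pemafibrate, so that the N libraries lay above the C libraries given above and above the NP libraries. The differences were 0.34 in N minus C (95% interval 0.05 to 0.63, unadjusted *P* = 0.0282, adjusted *P* = 0.264) and −0.50 in NP minus N (unadjusted *P* = 0.00554, adjusted *P* = 0.192). The FPKM of *Parp1* was 24.1 and 18.3 on the NASH diet and 25.4 and 23.0 with pemafibrate, which overlap with each other and with the C libraries. Its difference of −0.11 in N minus C had a 95% interval from −0.49 to 0.26 (adjusted *P* = 0.795, limma), so that a change as large as that of *Parp12* lies outside it. That difference turned to 0.056 when the libraries were scaled to the same total and to 0.076 without N replicate 2.

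Pemafibrate was compared with the NASH diet alone. The 5 genes that had risen were lower in the NP group, by 1.12 to 1.72 on the log2 scale, against 1.39% of all genes tested that were lower. Both NP libraries lay below both N libraries in 6 of the 7 genes, against 14.7% of all genes, and the median difference was −1.30 over the 7 genes and 0.03 over all genes. The N libraries enter both comparisons, so that the fall from N to NP is not independent of the rise from C to N. In NP minus C none of the 7 genes was called, with differences from −0.16 to 0.08 and adjusted *P* values from 0.781 to 0.992 (limma), and none had an unadjusted *P* value under 0.05. In that comparison 0.0387% of all genes were called. The intervals of the 7 differences ran from −0.48 at the lowest to 0.46 at the highest. A single member, *Parp9*, had NP libraries apart from the C libraries, just below them, against 42.5% of all genes that were apart in either direction.

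**Figure D3:**
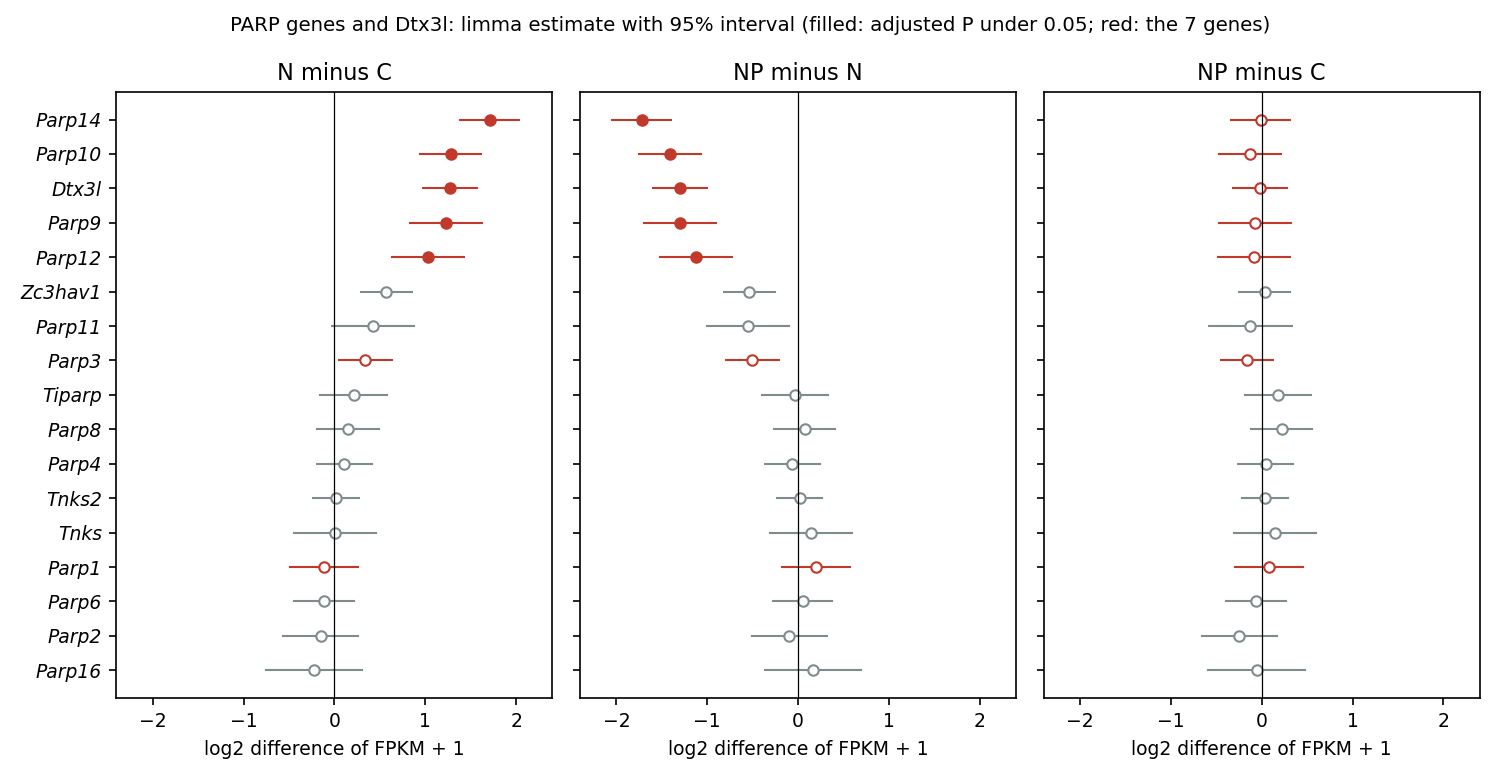
Differences of log2(FPKM + 1) (horizontal axis) with 95% intervals from limma for the 16 PARP genes and *Dtx3l* (vertical axis), in 3 panels for N minus C, NP minus N and NP minus C; red marks the 7 genes, and a filled point an adjusted *P* value under 0.05. In the first panel 5 filled points lie between 1.03 and 1.71, in the second they lie between −1.72 and −1.12, and in the third no point is filled.

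The number called depended on single libraries, and the size of the differences moved more in some of the genes than in others. In N minus C 1 of the 7 genes was called without C replicate 1, 0 without C replicate 2 (5 at an unadjusted *P* value under 0.05 in limma), 2 without N replicate 1, 1 without N replicate 2 and 3 without either NP replicate. In NP minus N the numbers were 1, 1, 2 and 1 without the same C and N libraries, 3 without NP replicate 1 and 2 without NP replicate 2. Each of these fits has fewer residual degrees of freedom and assumes that the lone library of a group varies like the others. An N minus C difference cannot move when an NP library is left out. Over the 6 fits, the difference of *Parp14* in N minus C ranged from 1.59 to 1.83 and that of *Dtx3l* from 1.26 to 1.29. It ranged from 1.18 to 1.38 in *Parp10*, from 1.02 to 1.44 in *Parp9* and from 0.89 to 1.18 in *Parp12*. *Parp14* passed in 5 of them (adjusted *P* = 0.0613 without C replicate 2, limma) and in NP minus N in all 6. *Parp12* passed in none of them in either comparison.

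The remaining 10 PARP genes gave no call in any comparison, and their median N minus C difference was 0.06. *Tnks2* and *Tnks*, the tankyrases of telomere and WNT biology, were at 22.2 to 24.0 and 11.4 to 16.3 FPKM in all libraries, with overlapping groups. *Parp6* was at 11.3 or less. In 4 of the 10 genes the N libraries lay above those of C, against the 22.5% of all genes given above. Among them, *Zc3hav1* and *Parp11* were picked out after their values were seen. *Zc3hav1*, the antiviral zinc-finger protein that carries a catalytically inactive PARP domain, had 5.17 and 4.57 FPKM on chow, 7.52 and 7.89 on the NASH diet, and 5.16 and 4.85 with pemafibrate. Its differences were 0.57 (adjusted *P* = 0.0964) and −0.54 (adjusted *P* = 0.151, limma). *Parp11* had 2.62 and 2.65, then 3.34 and 4.49, then 1.92 and 2.80 FPKM, with differences of 0.43 and −0.55 and neither called.

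As a share of the FPKM summed over the 16 PARP genes, *Parp9*, *Parp10*, *Parp12* and *Parp14* made up 18.0% and 16.1% on chow, 33.1% and 35.8% on the NASH diet, and 16.6% and 15.7% with pemafibrate. *Parp1* made up 14.8% and 14.7%, 11.8% and 8.60%, and 15.9% and 15.6%. The sum itself was 151 and 158 FPKM on chow, 205 and 213 on the NASH diet, and 147 and 160 with pemafibrate. The other E3 ligases of the Deltex family were not called. *Dtx3* had 20.3 and 19.2 FPKM on chow and 15.1 and 17.0 on the NASH diet, a difference of −0.28 (adjusted *P* = 0.317, limma). *Dtx2* and *Dtx4* differed by 0.17 and by less than 0.01, and *Dtx1* was under the filter.

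The genes that carry the interferon signal were then read from the same fit. The ligands were listed at or near 0. *Ifnb1*, *Ifna4*, *Ifnl2* and *Ifnl3* were listed at 0 in all libraries, and *Ifng* was listed at 0 except for 0.114 FPKM in N replicate 2. The receptors *Ifngr1*, *Ifngr2*, *Ifnar1*, *Ifnar2*, *Ifnlr1* and *Il10rb* and the kinases *Jak1*, *Jak2* and *Tyk2* were not called in either comparison.

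Several transcription factors downstream of them changed. Of the 24 tested genes of the pathway list, 8 rose in the N group and none fell, and 9 were lower with pemafibrate than without it. The median differences were 0.45 and −0.37. *Irf7*, which amplifies type I interferon, had 10.3 and 6.63 FPKM on chow, 45.0 and 48.3 on the NASH diet, and 8.98 and 7.83 with pemafibrate, a difference of 2.36 in N minus C. *Irf9* and *Stat2*, whose proteins act together on type I interferon targets, differed by 1.69 and 1.42, and *Irf1* differed by 1.55. In the NP minus N comparison these differences were −2.34, −1.69, −1.36 and −1.54, and all 4 genes were called in both. *Socs3*, a feedback inhibitor, was called only in the second (−0.76, adjusted *P* = 0.0473), and whether it differed between the comparisons was not tested.

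Of 23 tested type I interferon targets, 9 rose in the N group and 9 were lower in the NP group, with medians of 0.997 and −1.03. *Ifit3* had 4.57 and 3.39, then 22.2 and 29.6, then 4.39 and 2.88 FPKM, a difference of 2.43 in N minus C. *Ifit1*, which binds foreign RNA with IFIT3 as its partner, differed by 2.38, the apoptosis factor *Xaf1* by 1.77, the tetherin gene *Bst2* by 1.73 and *Trim21* by 1.56. Of 20 interferon-gamma targets, 18 rose and 19 were lower in the NP group, with medians of 2.62 and −2.59. *Igtp*, an interferon-inducible GTPase, had 9.47 and 7.74, then 397 and 601, then 6.46 and 8.97 FPKM. Its difference was 5.68, beside 4.21 for *Irgm2*, 4.13 for *Irgm1*, 3.69 for *Iigp1* and 3.23 for the peptide transporter *Tap1*. The median of the 7 genes of the set, 1.23, lay between the medians of these lists.

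**Figure D4:**
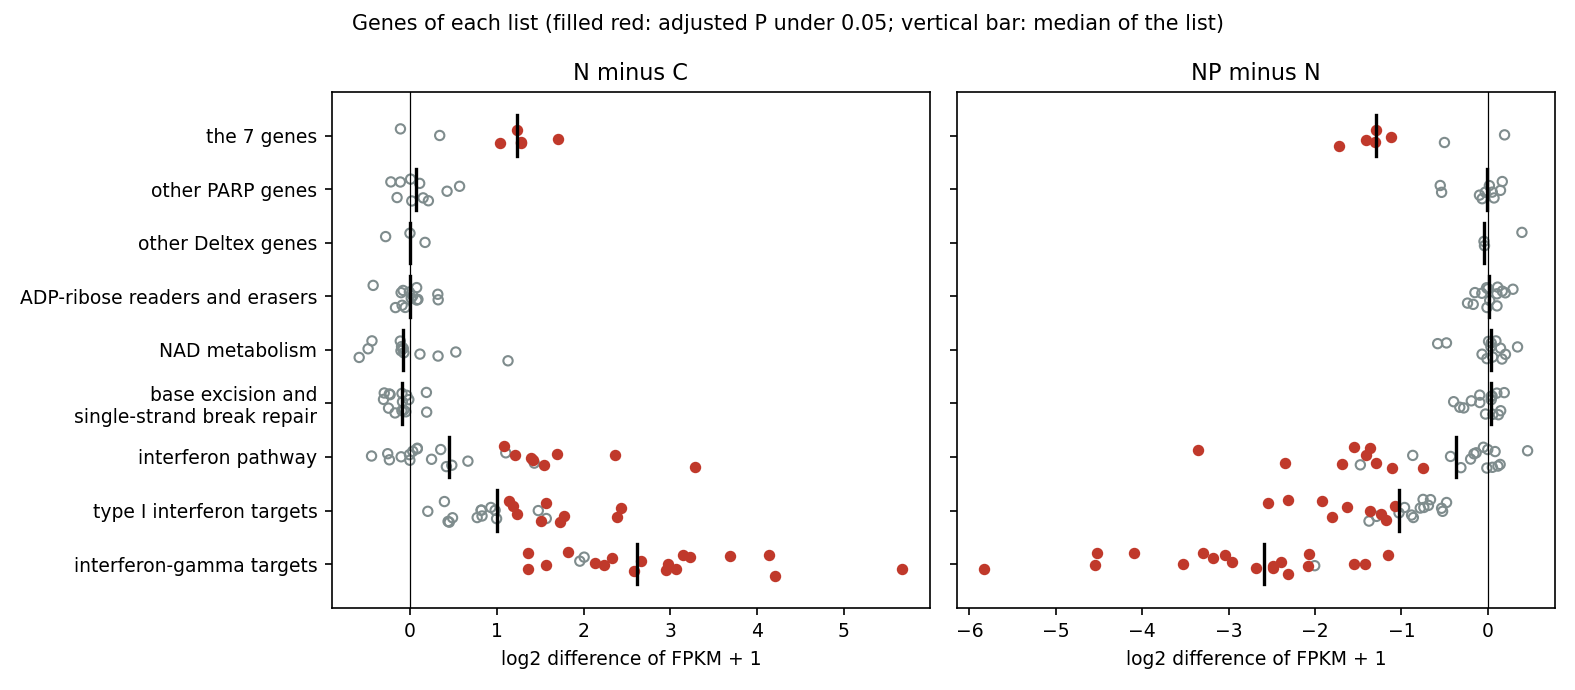
Difference of log2(FPKM + 1) (horizontal axis) of each tested gene of the lists named on the vertical axis, for N minus C (left) and NP minus N (right); red points have an adjusted *P* value under 0.05 and the vertical bar is the median of the list. Medians for N minus C are 1.23 for the 7 genes, 0.45, 0.997 and 2.62 for the 3 interferon lists, and between −0.09 and 0.06 for the other 5 lists, which hold no red point.

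The 5 genes that rose followed nearly identical profiles over the 6 libraries. On the log2(FPKM + 1) scale, the Pearson correlation between any pair of them was 0.948 to 0.988. These correlations rest on 6 libraries in which the N pair stands apart, so that they describe that separation more than anything else, and they carry no *P* value. The mean of their standardized profiles correlated at 0.911 with *Parp3* and at −0.543 with *Parp1*. The 10 genes outside the set with the highest correlation to it were *Vwa5a* (0.999), *Samhd1*, *Usp18*, *Tap1*, *Gbp3*, *Gm12185*, *Psmb9*, *Lilra5*, *Irf8* and *Ifit3* (0.997). A correlation above 0.99 was reached by 56 genes and one above 0.9 by 477 genes. *Vwa5a* changed less than the 5 genes that rose, with 15.2 and 14.9, then 22.8 and 24.2, then 15.2 and 14.4 FPKM. It was not called (adjusted *P* = 0.0609 in N minus C, limma).

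The nearest genes were also taken for single members. For *Parp14* these were *H2-M3*, *Usp18* and *Psmb9*, and for *Dtx3l* *Il2rb*, *Uba7* and *B2m*. For *Parp10* they were *Lair1*, *Rsad2* and *H2-T23*, for *Parp9* *Cd79b*, *Slamf7* and *Serpina3f*, and for *Parp12* *Ciapin1*, *Cmpk2* and *Atad2b*. The correlations were 0.996 to 0.999 over 6 libraries. *Usp18* and *Psmb9* are also among the 10 genes given above, so that they are not particular to *Parp14*. *Ciapin1*, *Cmpk2* and *Atad2b* differed by 0.25, 0.82 and 0.18 in N minus C, and none of them was called. *Cd79b* is a B cell receptor gene at 1.38 and 1.96 FPKM on the NASH diet and under 0.5 in the others, and *Il2rb* is a cytokine receptor of T and NK cells at 2.95 and 3.17 on the NASH diet and under 0.4 in the others.

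The summed levels of immune cell markers were also highest in the N group. Only 2 NK cell markers and 2 B cell markers passed the filter, so that most lymphocyte markers could not be called. The 10 macrophage markers, with *Lyz2* at the highest level, summed to 409 and 367 FPKM on chow, 760 and 634 on the NASH diet, and 311 and 274 with pemafibrate. Of these 10 genes, 3 rose in the N group and 6 were lower in the NP group, against 1.48% and 1.39% of all genes tested. *Cd163* differed by 0.10 in N minus C (adjusted *P* = 0.914, limma). The 9 listed T cell markers summed to 0.903 and 0.844, then 5.35 and 4.50, then 1.06 and 0.782 FPKM, all 9 of them under the filter. The 8 NK cell markers summed to 0.665 and 0.770, then 7.27 and 8.89, then 0.473 and 0.622. *Nkg7* rose and was lower in the NP group, and *Eomes* was at 0 in the C and NP libraries. The 6 B cell markers summed to 1.36 and 1.11, then 5.71 and 5.79, then 1.44 and 1.75, and none of them was called. None of the endothelial, fibroblast, cardiomyocyte and adipocyte markers was called. The adipocyte markers summed to 1.89 and 8.20, then 173 and 84.8, then 14.4 and 69.7 FPKM, and those of red blood cells to 36.0 in C replicate 1 and 168 to 237 in the other 5 libraries. The part of any of these cells in the PARP levels was not tested.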

How the data were processed

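Heart RNA of 6 mouse libraries, 2 in each of the C, N and NP groups, was analysed as grouped by the diet and treatment in the labels. Libraries were made with a stranded TruSeq mRNA kit, and reads of 75 bases were obtained from 1 end. Per the labels and the methods of the study, the authors mapped the reads to mm10 with TopHat 2.0.13, Bowtie2 2.2.3 and SAMtools 0.1.19 and deposited FPKM from Cufflinks 2.2.1. The gene annotation is not given in the sources used here. Counts were not used here, and read depth was estimated from steps between low FPKM values.

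FPKM were taken as log2(FPKM + 1), and the 12923 genes with a mean of at least 0.5 were fitted in limma 3.58.1 (R 4.3.3), with 3 groups in one model, 3 residual degrees of freedom and a prior that follows the mean level. Adjustment over all genes was by Benjamini-Hochberg, and the threshold was 0.05. The script was tested on simulated data. An exact permutation test of so few libraries cannot pass the threshold and was not used. Positions are from GENCODE M21 and promoter sequences from RefSeq. Scripts ran under Python 3.11.15, with pandas 2.3.3, numpy 2.4.6 and, for the plots, matplotlib 3.10.9. The members, the gene lists and the markers were chosen with earlier results of these data known. Genes named from a list are the 5 with the largest difference among those called, or, where none was, the 3 with the highest mean. A gene that this rule gives is not reported here. The genes nearest in profile are the 10 most correlated with the mean profile and the 3 most correlated with each gene that rose. Alternatives were other scalings, filters, pseudocounts and designs, a replicate block, and each library left out in turn.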

Additional observations from a re-analysis of the deposited data

How the results depend on the processing

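The 5 members that rose kept their sign in N minus C and in NP minus N in every alternative run. Both N libraries lay above all other libraries in each of them, so that leaving out a library could not have turned the sign. Other filters, the replicate block and the prior left the differences themselves unchanged. Their number called, 5 in both comparisons, fell to 3 between the N and C groups without the filter and with only the 2 groups in the model, and to 0 to 3 with a library left out. Between the NP and N groups it fell to 3 without the filter, to 1 with only the 2 groups, and to 1 to 3 with a library left out. Fewer libraries or more genes enter these fits, and the cause was not tested further. Over all genes, the 200 called between the N and C groups became 309 with libraries scaled to the same total and 49 to 183 with a library left out. Without C replicate 1 the direction of these calls changed, with 88 higher and 95 lower in N minus C (48.1% higher, against 83.7% to 94.5% without any other library) and 10 higher and 91 lower in NP minus C. The 179 between the NP and N groups became 78 with only the 2 groups and 67 to 108 with a library left out. The 5 between the NP and C groups became 10 at the same total, 12 with a pseudocount of 0.1, 0 in limma without the filter (1353 at an unadjusted *P* value under 0.05) and 5 to 101 with a library left out. Scaling to the same total moved the median of all genes between the N and C groups from −0.03 to 0.12, and the differences of the members moved with it. Signs turned in results that were not called. For *Parp1* between the N and C groups the value was 0.056 at the same total, and −0.30 to 0.076 with a library left out. Between the NP and C groups the values at the same total were 0.062 for *Parp9*, 0.0034 for *Parp10*, 0.052 for *Parp12*, 0.12 for *Parp14* and 0.11 for *Dtx3l*. With a library left out they ran from −0.23 to 0.058 for *Parp12*, from −0.13 to 0.11 for *Parp14* and from −0.13 to 0.090 for *Dtx3l*. Of the values of single members under alternatives, 250 kept sign and side of the threshold, 53 lost the call and 12 changed sign. The 250 include results that were not called in the main fit and had no call to lose. These numbers therefore do not measure how stable the calls were. In a fit with replicate number as block, 328 genes were called between the N and C groups, 83.5% of them higher against 95.5% without it, 20 between the NP and C groups, and the same 5 members in both comparisons that involve the N group. The labels do not say what the numbers share, although the value columns of the N and NP groups carry names of one kind for replicate 1 and of another for replicate 2. Within replicate 1 the NP minus N differences of these 5 members were −1.60 to −0.89 and within replicate 2 −1.85 to −1.20. Across genes, the difference of replicate 2 from 1 correlated at 0.0471 between the C and N groups, 0.124 between C and NP, and 0.458 between N and NP.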

Other observations

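Genes that make, read, remove or spend the substrate of PARP enzymes were listed beside the family, and none was called in any comparison. Of 14 genes of readers and erasers of ADP-ribose, the median N minus C difference was 0.00. The 3 with the highest level stood above *Parp9*, *Parp10*, *Parp12* and *Parp14* in FPKM. *Adprhl1*, a heart-enriched relative of the ADP-ribosyl hydrolases, was at 398 to 501 FPKM in the 6 libraries, *Macrod1*, a mitochondrial macrodomain eraser, at 183 to 205, and *Adprh*, which frees arginine, at 27.1 to 32.1.

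Among 13 tested genes of NAD metabolism the median difference was −0.09. *Nampt*, the enzyme of the NAD salvage route, was at 82.3 and 83.6 FPKM on chow, 65.9 and 92.5 on the NASH diet, and 74.2 and 74.8 with pemafibrate, the last below chow without overlap and not called, and *Sirt2*, an NAD-dependent deacetylase, at 56.4 to 71.7. *Sirt3*, its mitochondrial relative, had 40.6 and 40.5 FPKM on chow, 28.8 and 28.6 on the NASH diet, and 31.6 and 32.1 with pemafibrate. The N and NP libraries were both below the C libraries, without overlap, and neither difference was called (−0.49, adjusted *P* = 0.0911, and −0.34, adjusted *P* = 0.507, limma). The depth of the libraries separates in the same way, and its part was not tested. *Bst1*, an ADP-ribosyl cyclase singled out after its values were seen, had 0.587 and 0.388, then 2.23 and 2.26, then 0.852 and 1.54 FPKM (1.13 in N minus C, adjusted *P* = 0.0618, limma).

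Among 15 genes of base excision and single-strand break repair, the pathway in which PARP1 acts, the median was −0.09, and *Polb*, *Ung* and *Xrcc1* were not called. *Polb* had 31.5 and 30.5 FPKM on chow and 23.0 to 26.7 in the N and NP libraries.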
